A study of Mus musculus with 4 samples.

Results

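Apoe, Trem2, Gpnmb, Spp1, Lpl, Fabp4, Fabp5, Cd9, Lgals3 and Abca1 are genes whose RNA is abundant in the macrophages of lipid-laden tissues, and they were followed here in single cells of Lewis lung carcinoma (LLC) tumors with and without radiation. They were taken as a list of names and matched by symbol in the 4 single-cell libraries, and all 10 were found among the 18605 genes that the libraries share. LLC cells are a mouse lung carcinoma line that grows in C57BL/6 mice. Female C57/BL6N mice 6 to 8 weeks of age carried the tumors under the skin of the right flank. The RT libraries, RT1, RT2 and RT3, came from tumors that received 24 Gy in 3 fractions of 8 Gy and were taken 72 h after radiation, and the NT library came from mock-treated tumors, 3 of which were pooled into the 1 library. All cells were captured without a sort on a microwell chip and read from the 3′ end of the RNA with unique molecular identifiers (UMIs, each standing for 1 captured RNA molecule). The NT value is therefore a mean over mice with no spread of its own, and no comparison below can show how much 1 mock-treated tumor differs from the next.

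Of 55805 barcodes, 55058 had at least 200 genes and at most 20% mitochondrial UMIs and were kept, 9976 in NT, 15029 in RT1, 14993 in RT2 and 15060 in RT3. The libraries held 69667759, 78585759, 108699844 and 85660188 UMIs in the same order, and the median kept cell held 5709, 3865, 5200 and 4158. Any pair of libraries shared between 175 and 274 barcodes, and these cells were kept. The shared barcodes were 1.75% to 1.82% of NT cells, 1.16% to 1.21% of RT cells in the pairs with NT, and 1.72% to 1.83% of cells in the pairs of RT libraries. The RT2 table listed its genes by symbol alone and had no barcode above 11.95% mitochondrial UMIs, unlike the other tables. Cells were clustered without the 10 genes and without the pathway genes described further on, and clusters were named from marker genes. Macrophages were clusters 4, 8 and 12, with 777 cells in NT and 2975, 2902 and 1800 in RT1 to RT3, or 7.79%, 19.8%, 19.4% and 12% of the kept cells. Their median cell held 3239, 2916, 4674.5 and 2625 UMIs. Cluster 8 was led by Cma1 and Cpa3, genes of mast cells, beside macrophage genes such as Mrc1 and Csf1r. The list of 4 mast cell and basophil markers was at 0 UMIs in the macrophages of NT and RT2 and summed to 2.03 CPM in RT1 and 62.4 CPM in RT3, with Cpa3 the most abundant.

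Macrophages that take up lipoproteins, dying cells or their membranes must store, burn or export the cholesterol and fatty acids that arrive. Free cholesterol in excess yields oxysterols, which activate the nuclear receptors LXRα and LXRβ and through them the genes of cholesterol export, while the SREBP2 transcription factor, which drives cholesterol synthesis, is held inactive. TREM2 is a surface receptor that binds lipids and lipoproteins and signals through the adaptor TYROBP, and cells with much TREM2, lipoprotein lipase, GPNMB, CD9 and fatty acid binding proteins are called lipid-associated macrophages in obese fat, atherosclerotic plaque, injured tissue and tumors.

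Data quality set limits on how each gene could be read. All 10 macrophage markers were detected in the macrophages, where they summed to 7918 counts per 1000000 UMIs (CPM) in NT and to 12812, 13099 and 9797 CPM in RT1 to RT3, with C1qb the most abundant at 1509, 3021, 3944 and 2573 CPM. RNA of the tumor cells was present in the macrophages as well. Rhox5, a homeobox gene that marks the LLC cells, stood at 190.8 CPM in NT macrophages and at 318.9, 258.6 and 351.6 CPM in RT1 to RT3, against 1076, 1320, 1212 and 1187 CPM in the tumor cells themselves. Most of it lay in cluster 8, where the median cell held 1113 UMIs. The Rhox5 level of cluster 8 was 639 CPM in NT against 934, 819 and 859 CPM in RT1 to RT3. In the second clustering given further on, the macrophage class held 86.5% to 97.6% of sub-clusters 7 and 11 by library. Their median cells held 7447 and 10269 UMIs, and their mean Rhox5 levels were 732 and 997 CPM. High doublet scores were found in 86.5% to 96.8% of their cells by library. In cluster 4, the largest, with 60.1%, 64.5%, 62.5% and 58.8% of the macrophages, Rhox5 stood at 30.6, 59.2, 39.8 and 57.7 CPM. The part that tumor RNA and doublets took in the macrophage values was not tested, and results are given for all macrophages and for cluster 4 alone.

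The 10 genes fell into those that were carried mainly by macrophages and those that other cells held in larger amounts. Apoe, which encodes the apolipoprotein that macrophages load with exported lipid, was almost a macrophage transcript in these tumors. Its level was 1814 ± 603 CPM in macrophages (mean ± SD over the 4 libraries, here and in the next 3 paragraphs), and monocytes, next in order, held 174 ± 46 CPM, with no overlap between the libraries. Macrophages held between 90.5% and 95% of all Apoe UMIs of a library. Trem2 stood at 254 ± 46 CPM in macrophages and 108 ± 23 CPM in monocytes, again with no overlap, and macrophages held between 85.0% and 85.7% of its UMIs. Abca1, the transporter that hands cholesterol to lipid-poor apolipoproteins, was not particular to macrophages by level. Its 178 ± 72 CPM in macrophages overlapped with 163 ± 37 CPM in endothelial cells, 129 ± 46 CPM in monocytes and 104 ± 35 CPM in fibroblasts. Between 68.4% and 78.4% of its UMIs were nonetheless in macrophages.

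By level, Fabp5 and Lgals3 were highest in the mononuclear cells. Fabp5, a fatty acid carrier of the cytoplasm, was at 594 ± 174 CPM in macrophages, 403 ± 117 CPM in monocytes and 265 ± 65 CPM in dendritic cells, and these neighbours overlapped between libraries. Neutrophils, next in order, were lower in every library. Macrophages held 42.5% of the Fabp5 UMIs in NT and 68.0%, 72.4% and 64.7% in RT1 to RT3, and tumor cells 40.1%, 11.7%, 8.95% and 13.8%. Shares of UMIs, here and below, depend on the make-up of each library as well as on levels. Macrophages were 7.79% of kept cells in NT and 19.8%, 19.4% and 12% in RT1 to RT3. Tumor cells were 57.7% in NT and 44.9%, 42.7% and 49.3% in RT1 to RT3. Lgals3, which encodes galectin-3, a lectin that binds damaged lysosomes and extracellular glycans, was at 1295 ± 353 CPM in monocytes, 818 ± 192 CPM in macrophages and 723 ± 132 CPM in dendritic cells, which likewise overlapped. Tumor cells held more of the Lgals3 UMIs than macrophages did in every library, 65.9% in NT and 45.5%, 44.5% and 50.9% in RT1 to RT3, against 13.9%, 29.2%, 29.2% and 21.8%. Lpl, the lipase that frees fatty acids from triglyceride-rich lipoproteins, stood at 236 ± 124 CPM in fibroblasts, 164 ± 37 CPM in monocytes and 111 ± 44 CPM in macrophages, with overlap between each and the next. Fabp4, the fatty acid binding protein of adipocytes and capillary endothelium, was at 308 ± 313 CPM in endothelial cells and 258 ± 253 CPM in fibroblasts and at only 6.9 CPM in macrophages.

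Gpnmb, Spp1 and Cd9 were held mainly by the tumor cells. Gpnmb, which encodes a glycoprotein of lysosomes and melanosomes, was at 156 ± 49 CPM in tumor cells and 102 ± 48 CPM in macrophages, which overlapped between libraries. Tumor cells held 78.3% of its UMIs in NT and 68.6%, 71.8% and 70.7% in RT1 to RT3, whereas macrophages held 1.63% in NT and 8.71%, 11.7% and 8.87% in RT1 to RT3. These shares too depend on how many cells of each class a library held. Spp1, which encodes the secreted phosphoprotein osteopontin, reached 2630 ± 645 CPM in tumor cells, and between 1.33% and 5.09% of its UMIs were in macrophages. Its level was higher still, 5894 ± 1366 CPM, in cluster 3, which was nearest to tumor cells but left unnamed, and clusters 3 and 5, both unnamed, held between 25.4% and 32.9% of its UMIs. Spp1 also stood at 1917 ± 621 CPM in lymphocytes, against 917 ± 297 CPM in macrophages. Activated T cells and NK cells can make osteopontin themselves, and the source of this RNA was not tested. Cd9, a tetraspanin, was highest in neutrophils at 1091 ± 131 CPM, above every other class in each library, and stood at 752 ± 103 CPM in tumor cells. The plot of levels by class shows Apoe and Trem2 highest in macrophages, Gpnmb and Spp1 in tumor cells and Cd9 in neutrophils. For Gpnmb and Spp1, tumor cells overlapped with the next class between libraries.

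**Figure D1:**
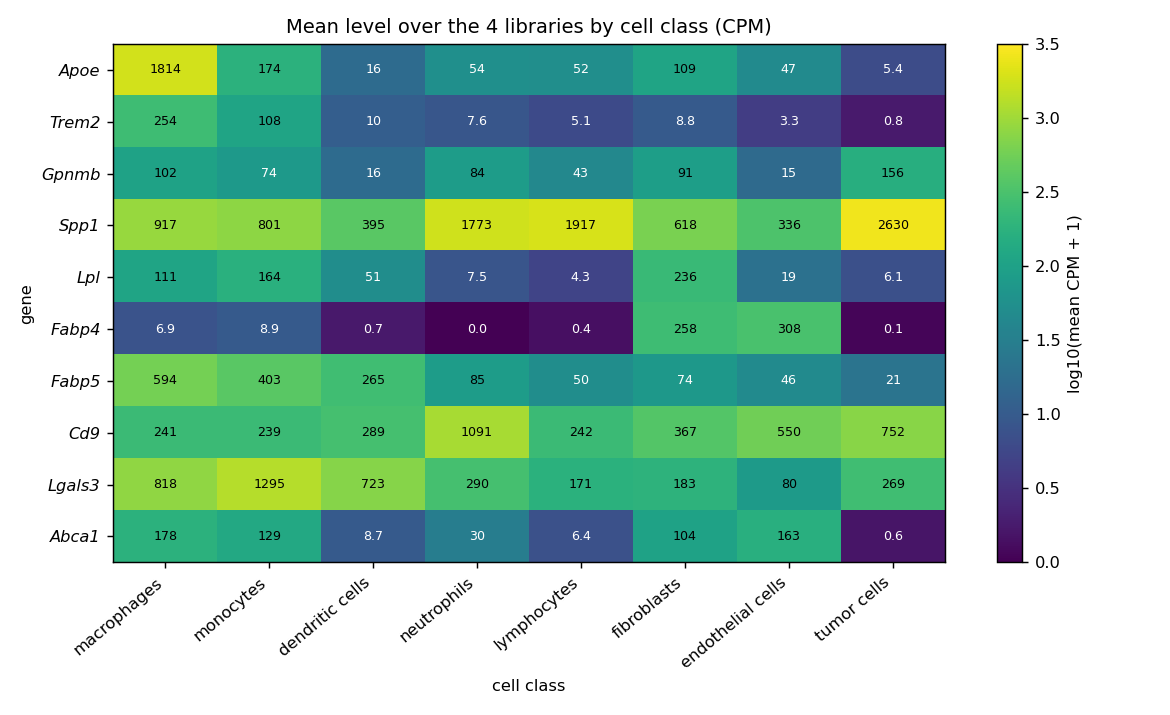
Mean level over the 4 libraries, in CPM on a log color scale, of each of the 10 genes (rows) in the 8 named cell classes (columns). Apoe and Trem2 are highest in macrophages, while Spp1 and Gpnmb are highest in tumor cells and Cd9 in neutrophils.

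Gpnmb, Spp1 and Cd9 were set against Rhox5 within each class. In tumor cells, 0.10 Gpnmb UMIs were counted for every Rhox5 UMI in NT, and 0.17, 0.13 and 0.11 in RT1 to RT3. In cluster 8 the same ratio was 0.15 in NT and 0.18, 0.18 and 0.15 in RT1 to RT3, above that of tumor cells in every library. In cluster 4 it was 0.42 in NT and 1.77, 2.27 and 2.88 in RT1 to RT3, and in lymphocytes 0.10, 0.33, 0.15 and 0.06. For Spp1, the ratio was 1.83 in tumor cells of NT and 2.59, 1.87 and 2.41 in those of RT1 to RT3, and in cluster 8 it was 2.55, 3.04, 2.43 and 3.15. Cluster 4 lay above both in every library, at 9.60, 6.40, 4.21 and 6.83, while lymphocytes stood at 4.18, 8.17, 7.53 and 8.12. For Cd9 the ratio was 0.58, 0.64, 0.59 and 0.69 in tumor cells, 0.71, 0.70, 0.67 and 0.72 in cluster 8, and 3.02, 2.01, 1.64 and 1.95 in cluster 4, above tumor cells and above the 0.76, 0.92, 0.89 and 0.92 of lymphocytes in every library. Unnamed cluster 3, nearest to tumor cells, was not counted among the tumor cells here. Its mean levels were 5894 CPM for Spp1, 186 CPM for Gpnmb, 882 CPM for Cd9 and 1107 CPM for Rhox5. Those of the tumor cells were 2630, 156, 752 and 1199 CPM in the same order.

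The libraries were then compared to ask whether the genes stood at another level in the macrophages of irradiated tumors. UMIs were summed over the macrophages of each library, and the 3 RT libraries were compared with NT by edgeR's quasi-likelihood test, with p adjusted over all genes tested by the Benjamini-Hochberg method. With 1 NT library the test assumes that NT varies as an RT library does. Over all macrophages, none of the 10 genes passed an adjusted p of 0.05, and neither did most other genes, with 27 of 12043 called (0.224%). Before adjustment, 7 of the 10 had an edgeR p under 0.05, 6 of them higher and 1 lower in RT. Of all genes tested, 13.6% had one, 8.11% higher and 5.44% lower. In direction, 8 of the 10 stood above NT in all 3 RT libraries, against 35.1% of all genes, and Lpl stood below NT in all 3, against 29%. The median log2 ratio was 0.70 for the 10 genes and 0.025 for all genes. The 10 genes were chosen with earlier results of these data known. These counts and medians therefore describe the genes and do not test them as a set. Under DESeq2, listed as the other tool, Gpnmb, Abca1 and Apoe passed the threshold in all macrophages, with 1.62% of genes called. Neutrophil and fibroblast markers also stood higher in RT macrophages, the neutrophil list summing to 77.5 CPM in NT against 296, 454 and 131 CPM in RT1 to RT3 (Mmp9 its most abundant gene) and the fibroblast list to 194.5, 397.6, 329.5 and 388.7 CPM (Col3a1 its most abundant gene). Their part in the results was not tested.

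**Figure D2:**
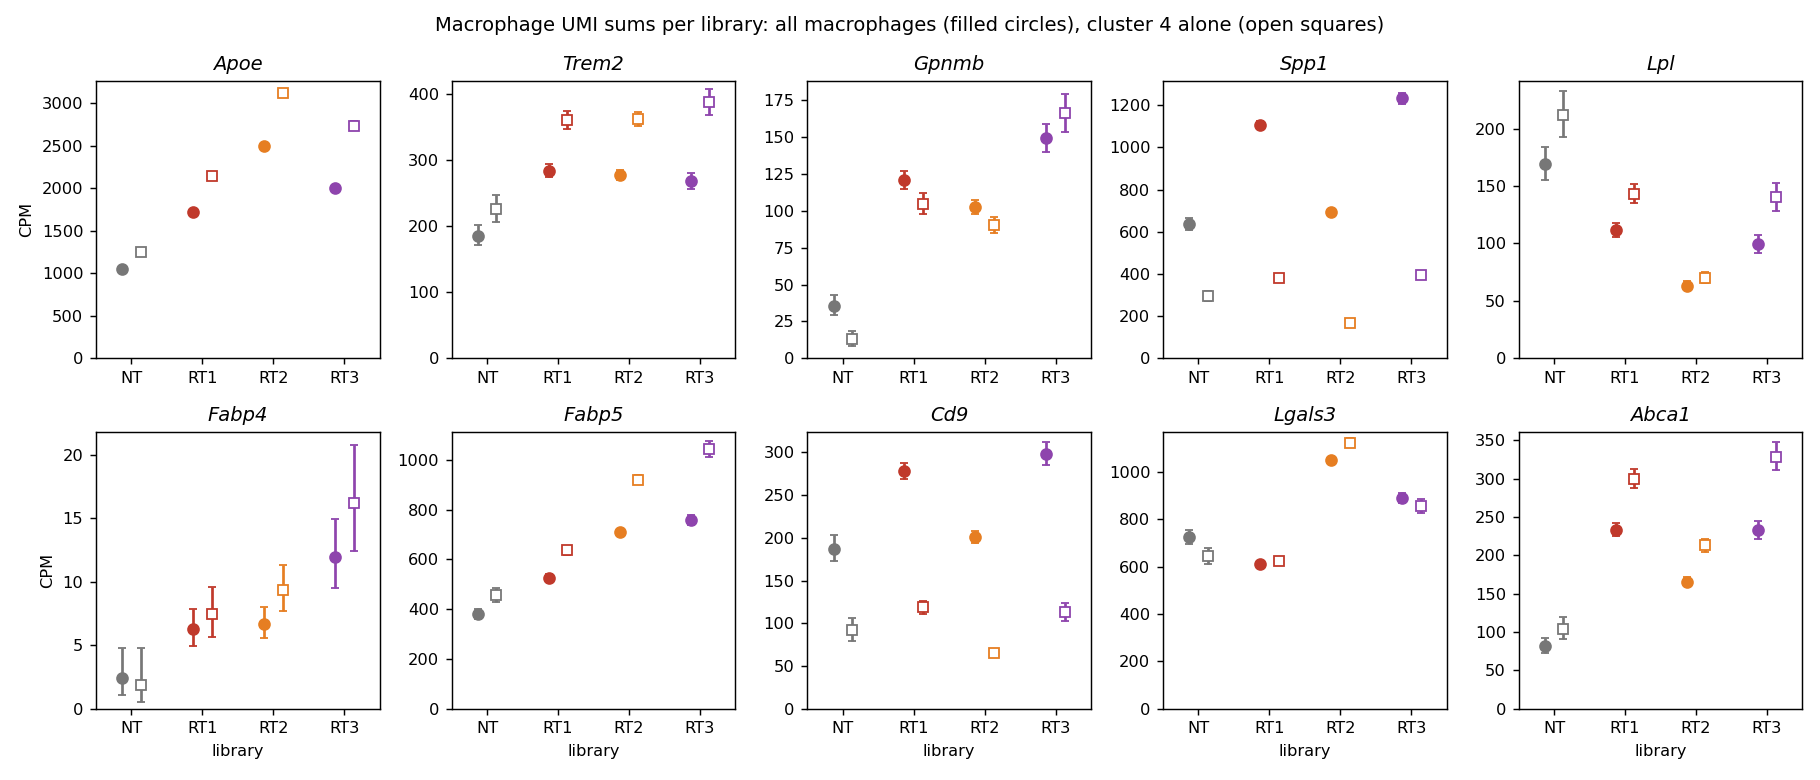
Level of each gene in CPM in NT, RT1, RT2 and RT3, in all macrophages (filled circles) and in macrophage cluster 4 alone (open squares), with exact Poisson 95% intervals that cover counting error only. Gpnmb and Abca1 stand above NT in every RT library in both sets of cells, and Lpl stands below it.

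Among the 10 genes, Abca1 stands for cholesterol export. LXR is known to drive Abca1 in macrophages, and the Abca1 promoter is shown for a repeat of letters of the kind that LXR recognises. The 300 bases (RefSeq, GRCm38.p6, chr4:53159846-53160145, minus strand) run from 250 bases before to 50 after the annotated start.

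Abca1: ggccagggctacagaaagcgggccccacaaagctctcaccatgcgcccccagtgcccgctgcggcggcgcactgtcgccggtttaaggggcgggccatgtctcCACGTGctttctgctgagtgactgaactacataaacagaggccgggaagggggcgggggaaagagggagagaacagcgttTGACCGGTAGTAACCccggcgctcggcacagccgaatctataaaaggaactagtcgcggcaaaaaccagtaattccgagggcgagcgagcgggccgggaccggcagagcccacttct

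The capitals mark CACGTG, an E-box that begins 147 bases before the start, and, beginning 67 bases before it, a match on the opposite strand to GGTTANNNNCGGTCA, a repeat of the kind that LXR and its partner RXR bind. Both strands of each window were searched, and the 2 motifs do not overlap in this promoter. CACGTG was found in 7.15% of 32851 RefSeq mouse promoters of this length. GGTTANNNNCGGTCA was found in 4 of them (0.0122%), a share that says little because the letters were chosen after this promoter had been read. A match is a description of letters and not a bound site.

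Abca1 stood at 82.1 CPM in NT macrophages and at 233, 166 and 232 CPM in RT1 to RT3. The lowest RT library was at 2.02 times the NT level, and NT lay apart from all 3. The edgeR log2 ratio was 1.32 ± 0.27 (SE), with an unadjusted p of 0.0011 and an adjusted p of 0.10. In cluster 4 alone Abca1 stood at 105 CPM in NT against 299, 213 and 329 CPM in RT1 to RT3. There it rose, with an edgeR log2 ratio of 1.42 ± 0.29 and an adjusted p of 0.0393, one of 292 genes called among 10947 (2.67%) in that cluster. Cells with an Abca1 UMI were 14.1% of NT macrophages and 33.8%, 26.8% and 34.2% of those in RT1 to RT3 once each cell had been thinned to 2000 UMIs, which left out 231, 1031, 674 and 677 shallower cells. Among lymphocytes, set beside macrophages as a background class, the same share was 0%, 0.78%, 2.74% and 0.75%. Without thinning, 19.1% of NT macrophages and 42.9%, 44.8% and 41.2% of RT macrophages had an Abca1 UMI, at the median depths given above for macrophages and 1387, 1364, 1931 and 1551 UMIs in lymphocytes.

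Apoe stood at 1047 CPM in NT macrophages and at 1717, 2490 and 2001 CPM in RT1 to RT3. Every RT library was above NT, by 1.64 to 2.38 times. The make-up of the mononuclear cells was not the same in the libraries: the sub-cluster led by Lyve1, in which the mean Apoe level was 2474 CPM, was 12.3% of them in NT and 20.3%, 18.1% and 13.4% in RT1 to RT3, and the cycling sub-cluster led by Mki67, with 882 CPM, was 6.46% in NT and 1.30%, 1.37% and 0.705% in RT1 to RT3. The part of this in the results for all macrophages was not tested, and values within the first of these sub-clusters are given further on. Its edgeR log2 ratio of 0.96 ± 0.29 had an unadjusted p of 0.00902 and an adjusted p of 0.202. In cluster 4 alone the levels were 1250 CPM in NT against 2147, 3121 and 2734 CPM in RT1 to RT3, with an edgeR log2 ratio of 1.11 ± 0.27 and an adjusted p of 0.0668. At 2000 UMIs per cell, 66.5% of NT macrophages and 80.4%, 80.8% and 73.5% of RT macrophages had an Apoe UMI, against 0.909%, 5.43%, 4.45% and 2.24% of lymphocytes, and without thinning 72.1%, 81.9%, 81.7% and 71.4% had one, where RT3 lay on the other side of NT.

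Trem2 was the steadiest of the 10 genes over the RT libraries. It stood at 186 CPM in NT macrophages and at 284, 278 and 268 CPM in RT1 to RT3, 1.44 to 1.53 times the NT level. The edgeR log2 ratio was 0.54 ± 0.22, with an unadjusted p of 0.039 and an adjusted p of 0.341. In cluster 4, Trem2 stood at 226 CPM in NT against 361, 363 and 388 CPM in RT1 to RT3, and the edgeR adjusted p was 0.127. The share of cells with a Trem2 UMI at 2000 UMIs per cell was 29.9% in NT and 40.7%, 40.6% and 41.2% in RT1 to RT3, against 0%, 1.55%, 1.71% and 0.746% of lymphocytes, and without thinning 38.5% in NT and 50.8%, 55.4% and 45% in RT1 to RT3.

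Gpnmb had the widest gap between NT and RT. Its promoter (RefSeq, GRCm38.p6, chr6:49036268-49036567, plus strand, 250 bases before to 50 after the start) is shown beside that of Abca1 because the 2 genes were the ones called in cluster 4.

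Gpnmb: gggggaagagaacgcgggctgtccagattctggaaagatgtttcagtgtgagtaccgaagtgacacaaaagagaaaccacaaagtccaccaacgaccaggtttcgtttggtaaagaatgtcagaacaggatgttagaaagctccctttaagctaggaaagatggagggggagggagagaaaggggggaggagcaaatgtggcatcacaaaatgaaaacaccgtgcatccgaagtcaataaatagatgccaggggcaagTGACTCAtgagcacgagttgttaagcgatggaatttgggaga

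The capitals mark TGACTCA, the letters of an AP-1 site, which begin 8 bases after the annotated start and which 5.20% of RefSeq promoters of this length hold on either strand. Neither CACGTG nor GGTTANNNNCGGTCA was found in the Gpnmb window, and none of the 3 motifs was found in those of Apoe, Trem2, Spp1, Cd9 or Lgals3. Promoters of 7 of the 10 genes were matched, and Lpl, Fabp4 and Fabp5 were not among them.

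Gpnmb stood at 35.7 CPM in NT macrophages and at 121, 102 and 149 CPM in RT1 to RT3, 2.86 to 4.18 times higher. The edgeR log2 ratio was 1.76 ± 0.29, with an unadjusted p of 2.061e-04 and an adjusted p of 0.0595. Cluster 8 held 80 of the 117 Gpnmb UMIs of the NT macrophages. In cluster 4 Gpnmb rested on 27 UMIs in NT, or 12.7 CPM, and stood at 105, 90.2 and 166 CPM in RT1 to RT3. Gpnmb rose in this cluster, with an edgeR log2 ratio of 3.24 ± 0.45 and an adjusted p of 0.0105. The plain ratio of CPM, pooled over the RT libraries, was 8.46, with an exact 95% interval of 5.80 to 12.9 that covers counting error only. With cells that held any Rhox5 UMI left out of all macrophages, the edgeR log2 ratio was 3.16 with an adjusted p of 0.0253 (1.71% of genes called), and with the 8% of cells of highest doublet score left out it was 3.16 ± 0.44 with an adjusted p of 0.00827 (2.51% of genes called). Abca1 passed under both as well, with log2 ratios of 1.57 and 1.57 and edgeR adjusted p of 0.0485 and 0.0275. At 2000 UMIs per cell, 4.21% of NT macrophages had a Gpnmb UMI, against 13.0%, 9.25% and 16.7% in RT1 to RT3. Lymphocytes gave 5.45%, 4.65%, 3.08% and 2.99%, so that the NT share was no higher than background and the RT shares were above it. Without thinning the macrophage shares were 6.82% in NT and 17.4%, 17.2% and 20.2% in RT1 to RT3.

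Lpl lay on the other side of NT. It stood at 169 CPM in NT macrophages and at 111, 63.2 and 99.2 CPM in RT1 to RT3, all below NT. The edgeR log2 ratio was -0.93 ± 0.29, with an unadjusted p of 0.0111 and an adjusted p of 0.221. Cluster 4 gave 212 CPM in NT against 143, 70.2 and 140 CPM in RT1 to RT3, with an edgeR adjusted p of 0.233. The share of cells with an Lpl UMI at 2000 UMIs per cell was 17.6% in NT and 10.1%, 6.24% and 10.8% in RT1 to RT3, against 0%, 0.775%, 1.03% and 0% of lymphocytes, and without thinning 21.1% in NT and 13.3%, 12.6% and 12.8% in RT1 to RT3. No setting that was tried brought Lpl past the threshold, and its log2 ratio lay between -1.80 and -0.61 over 16 settings.

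The fatty acid carriers lay on the other side from the lipase. Fabp5 stood at 380 CPM in NT macrophages and at 527, 711 and 759 CPM in RT1 to RT3, with an edgeR log2 ratio of 0.78 ± 0.27, an unadjusted p of 0.0205 and an adjusted p of 0.273. In cluster 4 it stood at 457 CPM in NT against 636, 920 and 1045 CPM in RT1 to RT3, with an edgeR adjusted p of 0.147. At 2000 UMIs per cell, 37.4% of NT macrophages and 48.5%, 53.8% and 53.0% of RT macrophages held a Fabp5 UMI, against 4.55%, 7.75%, 9.59% and 4.48% of lymphocytes, and without thinning 46.8% in NT and 52.9%, 64.1% and 57.2% in RT1 to RT3. Fabp4 rested on 8 UMIs in NT macrophages, or 2.44 CPM, and stood at 6.26, 6.72 and 12 CPM in RT1 to RT3. Its ratio was 3.09, with a counting interval of 1.55 to 7.23, and its edgeR adjusted p was 0.271.

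Spp1, Cd9 and Lgals3 gave the least separation. Spp1 stood at 636 CPM in NT macrophages and at 1107, 693 and 1233 CPM in RT1 to RT3, so that RT2 came within 1.09 times the NT level, and the edgeR adjusted p was 0.429. In cluster 4 its levels were 294 CPM in NT against 379, 168 and 394 CPM in RT1 to RT3, which lie on both sides of NT. At 2000 UMIs per cell, 32.4% of NT macrophages and 45.1%, 30.2% and 44.3% of RT macrophages had a Spp1 UMI, and lymphocytes gave 56.4%, 67.4%, 51.0% and 67.9%, higher than macrophages in every library. The unthinned shares of macrophages with a Spp1 UMI were 37.7% in NT and 52.2%, 44% and 50.4% in RT1 to RT3. Cd9 stood at 187 CPM in NT macrophages and 278, 201 and 298 CPM in RT1 to RT3, but at 92.3 CPM in NT against 119, 65.4 and 113 CPM in RT1 to RT3 in cluster 4, and its shares of cells were likewise near those of lymphocytes. Lgals3 stood at 724 CPM in NT macrophages and at 609, 1049 and 889 CPM in RT1 to RT3, on both sides of NT, with an edgeR log2 ratio of 0.21 ± 0.32 and an adjusted p of 0.829.

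The same comparison was made in monocytes, from which tumor macrophages arise. Monocytes numbered 562 in NT and 1962, 2126 and 1883 in RT1 to RT3. None of the 10 genes passed the edgeR threshold there, where 34 of 10180 genes did (0.334%), and 3 had an unadjusted p under 0.05, where 11.2% of genes did. Apoe, higher in RT macrophages, stood lower in RT monocytes, at 231 CPM in NT against 168, 177 and 120 CPM in RT1 to RT3, with an edgeR log2 ratio of -0.67 ± 0.28 and an adjusted p of 0.408. Over 13 settings this ratio ran from -1.23 to -0.031, the last at a clustering resolution of 1.2, and passed in 1 of them, without RT2. A test of the difference itself, added after the data had been seen and with the library as a block, gave an edgeR log2 difference of 1.63 ± 0.23 for Apoe between macrophages and monocytes, with an adjusted p of 0.00747, among 43 of 11393 genes called (0.377%). Gpnmb stood at 28.4 CPM in NT monocytes and 105, 60.8 and 101 CPM in RT1 to RT3, with an edgeR log2 ratio of 1.54 ± 0.41 and an adjusted p of 0.177, and its log2 difference from macrophages was 0.24 with an adjusted p of 0.835. Fabp5 stood at 230 CPM in NT monocytes and 443, 451 and 488 CPM in RT1 to RT3, with an edgeR log2 ratio of 0.90 ± 0.26 and an adjusted p of 0.206. Lpl, at 144 CPM in NT monocytes and 213, 169 and 129 CPM in RT1 to RT3, lay on both sides of NT. Its log2 difference between macrophages and monocytes was -1.10 ± 0.30 with an edgeR adjusted p of 0.151, and it ran from -1.33 to -0.85 over 5 settings and passed in 3 of them, those without 1 RT library.

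Tumor cells were compared for the genes that they carry. They numbered 5752 in NT and 6751, 6406 and 7432 in RT1 to RT3, and edgeR called 0 of 13754 genes at an adjusted p of 0.05, with 1766 (12.8%) at an unadjusted p under 0.05 and 446 called by DESeq2. Spp1 stood at 1965 CPM in NT tumor cells and at 3420, 2273 and 2862 CPM in RT1 to RT3, with an edgeR log2 ratio of 0.53 ± 0.25 and an adjusted p of 0.430. Gpnmb stood at 109 CPM in NT against 223, 158 and 134 CPM in RT1 to RT3, with an edgeR log2 ratio of 0.64 ± 0.29 and an adjusted p of 0.409. The Gpnmb difference between macrophages and tumor cells, a log2 value of 1.15 ± 0.35, had an edgeR adjusted p of 0.155, where 1.79% of genes passed, and it passed in 6 of 11 settings. Cd9 stood at 624 CPM in NT against 847, 714 and 824 CPM in RT1 to RT3, with an edgeR adjusted p of 0.487. Against monocytes and macrophages, Fabp5 was scarce, at 22.8 CPM in NT tumor cells and 21.2, 22.0 and 18.2 CPM in RT1 to RT3, all below NT. Apoe at 1.93 CPM in NT against 5.95, 9.65 and 4.12 CPM in RT1 to RT3, and Abca1, which rested on 2 UMIs in NT against 50, 44 and 43 in RT1 to RT3, stood higher together with the macrophage markers found among tumor cells, which summed to 7.5 CPM in NT against 38.0, 46.0 and 21.9 CPM in RT1 to RT3. The part of macrophage RNA in these values was not tested.

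**Figure D3:**
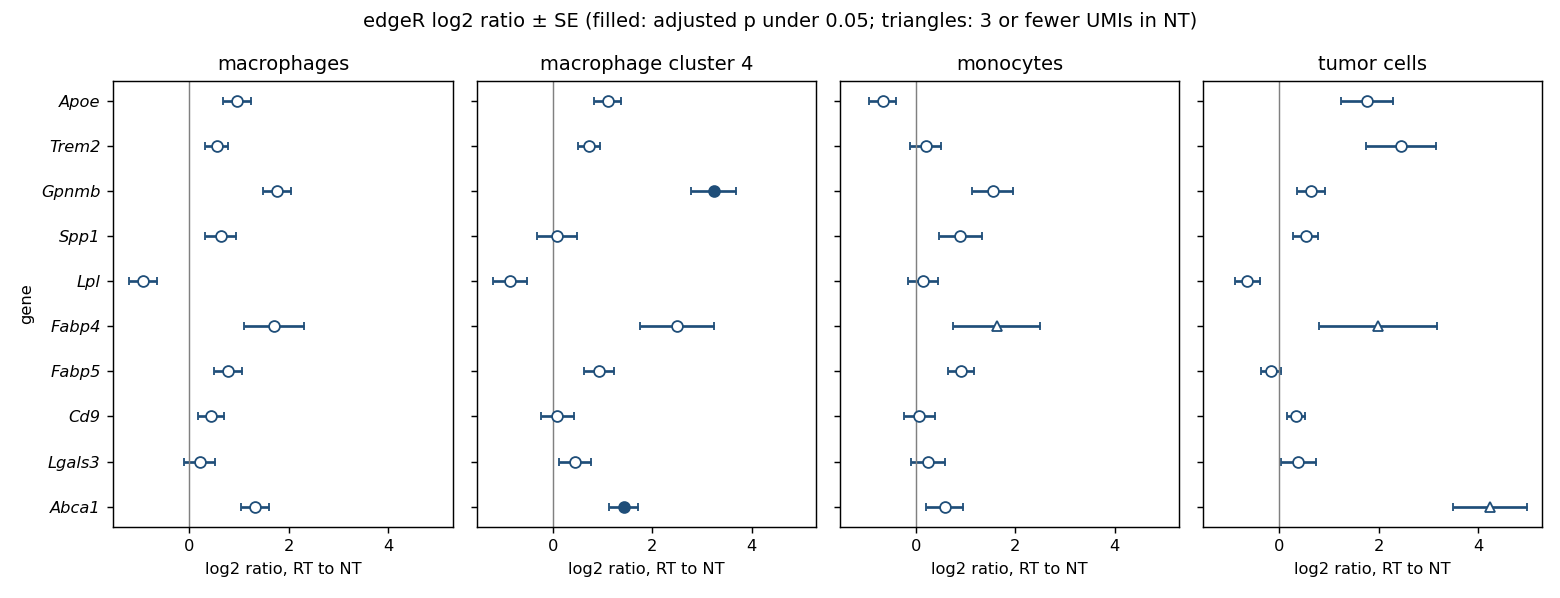
The edgeR log2 ratio of RT to NT with its standard error for each gene in all macrophages, macrophage cluster 4, monocytes and tumor cells, with filled symbols for an adjusted p under 0.05 and triangles where NT holds 3 or fewer UMIs. Filled symbols are found at Gpnmb and Abca1 in cluster 4, at 3.24 and 1.42.

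How the genes varied among the mononuclear cells was described by clustering macrophages, monocytes and dendritic cells again, which gave sub-clusters here called by number and leading genes. No test was made between them. Sub-cluster 8, led by Mmp12, Cxcl5, Ppbp, Inhba and Cd36, had the highest mean over libraries of Gpnmb, Abca1, Fabp4 and Fabp5 among the sub-clusters, at 611, 461, 50.5 and 1397 CPM. It held 38 cells in NT and 214, 182 and 192 in RT1 to RT3, or 2.7%, 4.2%, 3.5% and 5.0% of the clustered cells, and 26.3% of its cells in NT and 36.4%, 34.1% and 29.2% in RT1 to RT3 belonged to the macrophage class tested above. Cd36 is a scavenger receptor for oxidised lipoproteins, and Mmp12 is the macrophage elastase. Gpnmb stood at 208 CPM in NT cells of sub-cluster 8 (20 UMIs) and at 909, 600 and 728 CPM in RT1 to RT3. Fabp5 stood at 906 CPM in NT against 1276, 1430 and 1978 CPM in RT1 to RT3, and Fabp4 was at 0 UMIs in NT and at 33.8, 50.2 and 118 CPM in RT1 to RT3. Abca1 was high in all 4 libraries, at 416 CPM in NT against 511, 419 and 497 CPM in RT1 to RT3. The Rhox5 level of sub-cluster 8 was 31, 46, 28 and 44 CPM, near that of cluster 4.

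Sub-cluster 0, the largest with 2665 cells, was led by Lyve1, Cbr2 and Bmp2, genes of resident macrophages along vessels. Apoe stood there at 1475 CPM in NT against 2190, 3266 and 2965 CPM in RT1 to RT3, and Abca1 at 146 CPM in NT against 328, 250 and 363 CPM in RT1 to RT3. Gpnmb rested on 14 UMIs in NT, or 19.1 CPM, and stood at 65.5, 80.9 and 134 CPM in RT1 to RT3. Lpl stood at 247 CPM in NT against 96.4, 42.7 and 79.0 CPM in RT1 to RT3, with an edgeR log2 ratio of -1.80 ± 0.36 and an adjusted p of 0.121 when sub-cluster 0 was tested alone. Neither Gpnmb nor Abca1 passed in sub-cluster 0 alone, with edgeR adjusted p of 0.198 and 0.231, where 0.153% of genes passed. The genes thus differed in where they peaked. Lpl was highest in sub-cluster 5, led by Retnla, Ear2 and Itgax, at 521 CPM in NT against 525, 400 and 393 CPM in RT1 to RT3, and Apoe was highest in sub-cluster 9, led by Crip1, Cd52 and Ftl1, at a mean of 3088 CPM. By their scores, sub-clusters 9 and 2 were nearest to mast cells or basophils, on 3 markers above the mean. The macrophage class held 85.8% to 93.2% of the cells of sub-cluster 9 and 89.5% to 94.2% of those of sub-cluster 2. The 4 markers of the mast cell and basophil list were nonetheless at 0 UMIs in the macrophages of NT and RT2. Spp1 and Cd9 had their highest means, 3028 and 614 CPM, in sub-cluster 7, led by Ccn1, Dpt, Col3a1 and Dcn and left unnamed, in which 86.5% of NT cells and 88.8%, 94.5% and 89.3% of RT cells had a high doublet score.

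**Figure D4:**
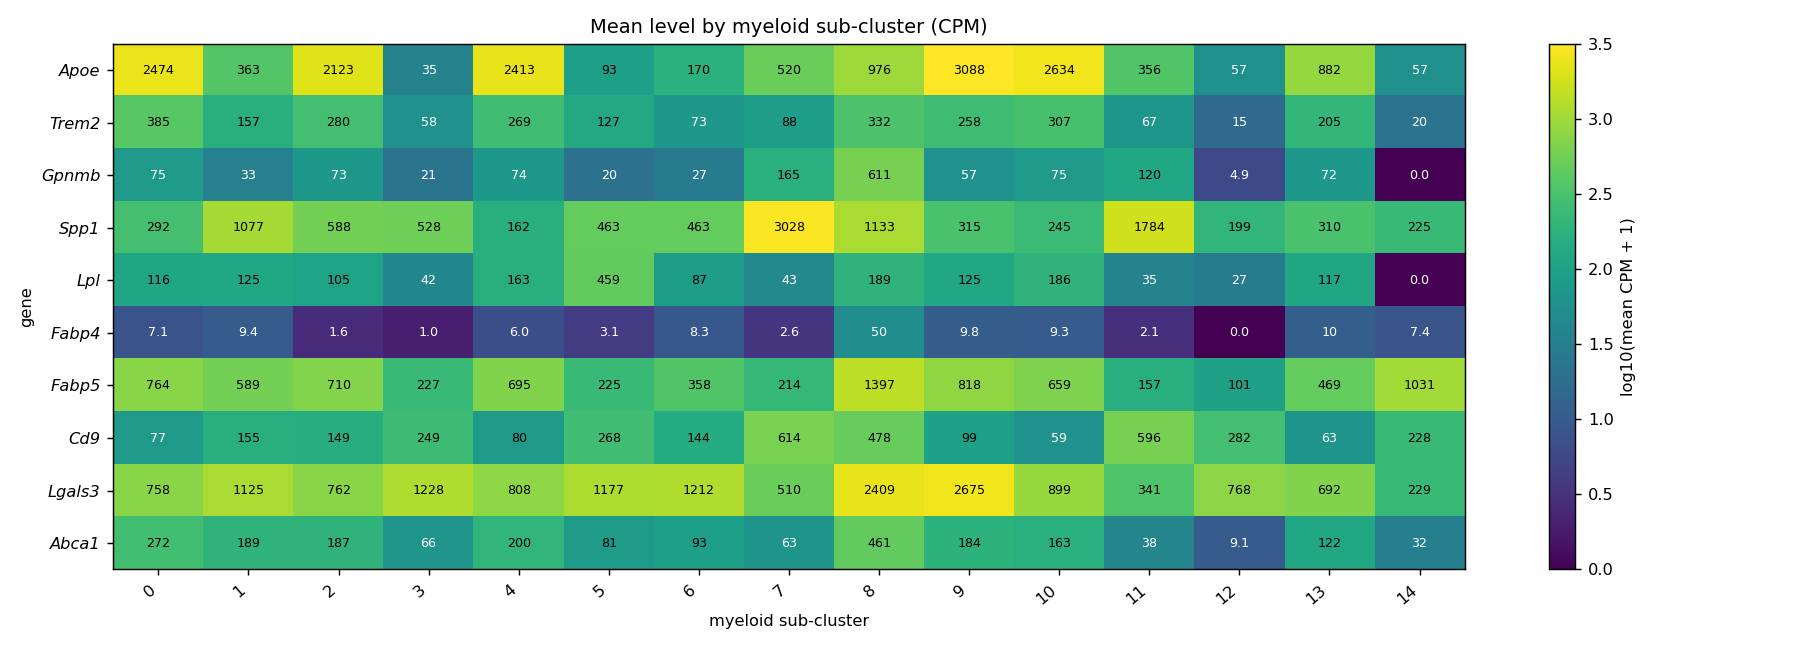
Mean level in CPM, on a log color scale, of the 10 genes (rows) in sub-clusters 0 to 14 of the mononuclear cells (columns), over the libraries with at least 20 cells. Gpnmb, Fabp5 and Abca1 are high together in sub-cluster 8, while Spp1 and Cd9 are high in sub-cluster 7, which is mostly cells of high doublet score.

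Across the 59 sums of sub-cluster and library, which share libraries and depth and are described without a test, the 10 genes fell into a few patterns. Apoe and Trem2 went together with a Pearson r of 0.82 on the log2 CPM scale, and so did Trem2 and Abca1 at 0.81, Apoe and Abca1 at 0.65 and Gpnmb and Abca1 at 0.65. Spp1 and Cd9 went together at 0.68, and Apoe and Cd9 went apart at -0.46. Among 9919 genes, those most like Apoe were Ms4a7 (r = 0.94), C1qc (0.93) and Gdf15 (0.92), and those most like Trem2 were Lyz2 (0.89), Cd300ld (0.88) and Rab11fip5 (0.87). Gpnmb was most like Slc6a8 (0.86), Fbxo32 (0.81) and Mindy1 (0.79). Spp1 was most like Lamc1 (0.80), Anxa5 (0.79) and Fkbp1a (0.79). Within single macrophages thinned to 2000 UMIs, Spp1 and Cd9 were found in the same cell 1.41 times as often as their separate shares would give in NT, and 1.57, 1.98 and 1.55 times in RT1 to RT3. For Apoe and Cd9 the same ratio was 0.79 in NT and 0.75, 0.73 and 0.66 in RT1 to RT3. Trem2 and Lpl were found together 1.61 times as often in NT and 1.28, 1.31 and 1.24 times as often in RT1 to RT3. Cells of high doublet score, among them most of sub-clusters 7 and 11, were kept in the 59 sums and among the single macrophages. Their part in these values was not tested.

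The 10 genes act within wider pathways, and 7 lists of other pathway genes were read in the macrophages by the same fit. In that fit 0.0747% of all genes rose and 0.149% fell, and the median log2 ratio of all genes was 0.025. These values are the background for the list counts in all macrophages below. The lists too were chosen with earlier results of these data known, so the counts describe them and are no test of a list. In the SREBP2 list of cholesterol synthesis genes, 12 of 12 were tested, 0 rose, 1 fell, and the median log2 ratio was -0.85, with 10 of the 12 below NT in all RT libraries, against 29% of all genes. The one that fell was Cyp51, lanosterol demethylase, at 147 CPM in NT against 46.3, 33.3 and 49.6 CPM in RT1 to RT3, with an edgeR log2 ratio of -1.81 ± 0.24 and an adjusted p of 0.0407. Monocytes gave a like value for Cyp51, at 319 CPM in NT against 140, 105 and 105 CPM in RT1 to RT3, with an edgeR log2 ratio of -1.55 and an adjusted p of 0.0375. Tumor cells stood at 268 CPM in NT against 90.3, 51.2 and 91.9 CPM in RT1 to RT3 and did not pass. The list's median log2 ratio was -0.80 in monocytes, against 0.047 for all genes. There 1 of the 12 passed, where 0.334% of all genes did. In tumor cells the median was -0.90, against 0.012, and 0 of the 12 passed, where 0 of 13754 genes did. At an unadjusted edgeR p under 0.05, 7 of the 12 were lower in macrophages, 5 in monocytes and 11 in tumor cells. The shares of all genes were 5.44%, 4.43% and 3.79%. Monocytes also had 1 higher, against 6.82% of all genes, and the other 2 classes had 0.

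Cholesterol efflux and lipoprotein uptake gave no calls in all macrophages. In the efflux list, 13 of 14 genes were tested, 0 rose and 0 fell, and the median log2 ratio was 0.41. Abcg1, the partner of ABCA1 that exports cholesterol to high-density lipoprotein, was named after its values were seen, and stood at 74.8 CPM in NT against 146, 150 and 160 CPM in RT1 to RT3, with an edgeR log2 ratio of 0.99 ± 0.23 and an adjusted p of 0.133. The uptake list had 8 genes tested, 0 called and a median of -0.30. Marco, a scavenger receptor likewise named after its values were seen, stood at 9.46 CPM in NT against 74.2, 136 and 69.9 CPM in RT1 to RT3, with an edgeR adjusted p of 0.0595, and it passed in cluster 4 alone.

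The list of TREM2 signaling and lysosomal genes had 14 of 15 members tested, of which 0 rose and 1 fell, with a median log2 ratio of 0.39. At an unadjusted p under 0.05, 3 of the 14 were higher and 1 lower, against 8.11% and 5.44% of all genes. The gene that fell was Itgax, the CD11c integrin chain often used to mark lipid-associated macrophages and dendritic cells, at 110 CPM in NT against 27.8, 18.2 and 27.0 CPM in RT1 to RT3, with an edgeR log2 ratio of -2.22 ± 0.25 and an adjusted p of 0.0347. The list of lipid storage and fatty acid use had 11 of 12 tested, 0 called and a median of -0.05. Pparg, the nuclear receptor that drives Fabp4 and Lpl in other cells, was named after its values were seen and stood at 14 CPM in NT against 5.58, 3.56 and 4.80 CPM in RT1 to RT3. In cluster 4 alone Pparg passed as lower, 1 of 11 genes of its list tested there, against 1.64% of all genes. The receptors of osteopontin had 6 of 7 tested, 0 called and a median of -0.31. The list of alternative activation genes had 6 tested, 0 called and a median of 0.76, with 4 of the 6 higher in RT at an unadjusted p under 0.05, against 8.11% of all genes. Ccl8, a chemokine named after its values were seen, stood at 1369 CPM in NT against 5064, 3742 and 3771 CPM in RT1 to RT3, with an edgeR adjusted p of 0.0666. In cluster 4 alone Ccl8 passed as higher, 1 of 6 genes of its list tested there, against 1.02% of all genes.

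**Figure D5:**
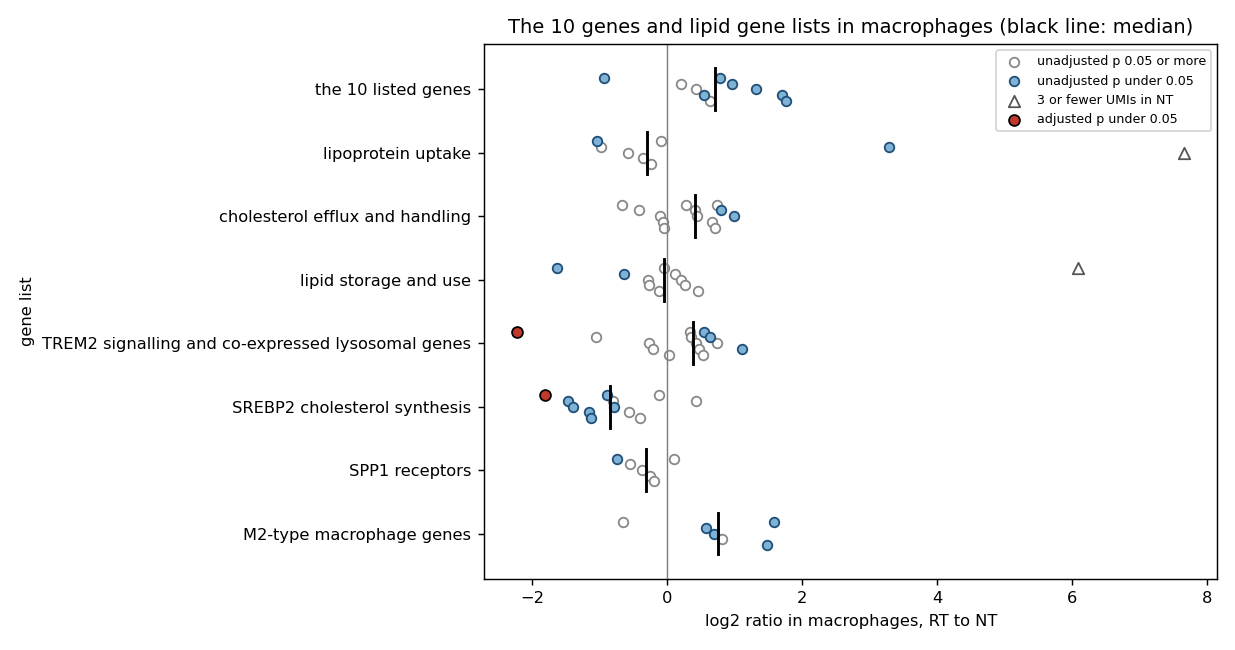
The edgeR log2 ratio of RT to NT in all macrophages for the 10 genes and for each tested member of the 7 pathway lists (points), with triangles where NT holds 3 or fewer UMIs and red for an adjusted p under 0.05. The red points are Itgax and Cyp51, both below 0, and most of the SREBP2 list lies below 0.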

How the data were processed

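The deposited counts are whole-number UMIs per gene and cell that the authors made with SeekOne Tools from Illumina reads, and the submitters' processing notes name STAR 2.5.1b, featureCounts, Subread 1.6.4 and Cell Ranger with builds GRCm39 and mm39. Barcodes under 200 genes or over 20% mitochondrial UMIs were dropped. Counts were scaled to 10000 per cell, 2000 variable genes gave 30 principal components, libraries were integrated with a Harmony-type correction, and Leiden clustering was run at a resolution of 0.8 (leidenalg 0.10.2, scikit-learn 1.9.0, Python 3.11.15). Clusters were named from at least 3 markers. Cluster 3 stayed unnamed because markers of another class led it, and cluster 5 because it was shallow with no marker of its class among its top 10 genes. Doublets were scored but kept in the main fit. UMIs summed per library and class were tested in edgeR 4.0.16 (R 4.3.3) with TMM and filterByExpr, on 2 residual degrees of freedom, and adjusted p under 0.05 was called. DESeq2 1.42.0 was an alternative.

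The 10 genes and the lists were chosen with earlier results of these data known. Of the lists, the text names members called in macrophages, and others are marked as named after their values were seen. Cluster 4 alone, sub-cluster 0 alone, the settings without tumor-like sub-clusters and the comparison of macrophages with monocytes were chosen after seeing the data. Clec7a was not analysed here, and 1 gene of the uptake list is not reported here. The study describes the RT libraries as individual samples, and p-values measure the spread between them. Intervals cover counting error only. GRCm38.p6 served for promoters alone. All 10 genes passed the filter on low counts in macrophages.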

Additional observations from a re-analysis of the deposited data

Results flagged for a closer look

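Apoe was picked out because its difference between RT and NT was not the same in macrophages as in monocytes. The log2 difference between the cell types was 1.63 ± 0.23 (edgeR, adjusted p = 0.00747), with RT above NT in 3 of 3 libraries in macrophages and below it in 3 of 3 in monocytes, in the main clustering (log2 ratio in monocytes from -1.23 to -0.031 over 13 settings). The difference was run in 5 settings and passed in each, also without the highest doublet scores and without each RT library in turn. All 5 used the main clustering. The difference was not run at resolution 1.2 or with no integration, where the monocyte class is drawn anew.

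Abca1 was picked out because its difference between RT and NT was not the same in macrophages as in tumor cells, with a log2 difference of -2.84 ± 0.61 (edgeR, adjusted p = 0.0409). Abca1 rested on 2 UMIs in NT tumor cells, so this fitted value depends on the prior count, and the plain ratio in tumor cells was 19.6 with a counting interval of 5.32 to 163. The difference did not pass with total UMIs in place of TMM, with DESeq2, with at most 10% mitochondrial UMIs, with no integration or without the highest doublet scores, where the adjusted p lay between 0.0537 and 0.13 (edgeR or DESeq2).

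Fabp5 was picked out because all 3 RT libraries stood above NT in macrophages and below NT in tumor cells. The test of the difference gave a log2 difference of 0.95 ± 0.23 and did not pass (edgeR, adjusted p = 0.0622), but it passed in 7 of 11 settings: by DESeq2, with no filter on low counts, with no integration, without the highest doublet scores and without each RT library in turn.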

How the results depend on the processing

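In all macrophages, genes called numbered 27 in the main comparison, 147 with total UMIs in place of TMM, 270 by DESeq2, 307 with no filter on low counts, 280 without the 8% highest doublet scores, 213 at resolution 1.2, 186 without cells with a Rhox5 UMI, 292 in cluster 4 alone, 15 in sub-cluster 0 alone and 248 without tumor-like sub-clusters, and between 31 and 320 without 1 RT library. Of the 10 genes, the number called was 0 in the main comparison, 1 with total UMIs (Gpnmb), 3 by DESeq2, 2 (Gpnmb and Abca1) with no filter, without doublets, at resolution 1.2, without Rhox5 cells, in cluster 4 and without tumor-like sub-clusters, 0 at most 10% mitochondrial UMIs (35 genes called), with no integration (31), with macrophages and monocytes summed (33) and in sub-cluster 0, and 0 to 2 without 1 RT library. Gpnmb had an edgeR adjusted p of 0.00715 without RT2 and 0.00474 without RT3 but 0.0675 without RT1, and Abca1 0.0162, 0.0298 and 0.149. Over 16 settings the Gpnmb log2 ratio ranged from 1.63 to 3.24, that of Abca1 from 1.08 to 1.57 and that of Apoe from 0.77 to 1.15.

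In monocytes, genes called numbered 34, with 63 by total UMIs, 139 by DESeq2, 349 with no filter, 11 at resolution 1.2, 21 with no integration and 0 to 484 without 1 RT library, and members called were 0, with 1 by DESeq2, 1 with no filter and 0 to 3 without 1 RT library (3 without RT2). In tumor cells, 0 genes were called, with 446 by DESeq2, 1 with no filter and 0 to 304 without 1 RT library, and 0 members, with 2 by DESeq2 and 0 to 1 without 1 RT library. For the difference between macrophages and tumor cells, genes called numbered 258, with 490 with no filter, 407 without doublets, 533 at resolution 1.2 and 354 to 736 without 1 RT library, and members called were 1, with 0 by total UMIs, 4 with no filter, 0 at most 10% mitochondrial UMIs, 2 without doublets, 2 at resolution 1.2 and 3 to 5 without 1 RT library. For macrophages against monocytes, 43 genes were called, with 90 without doublets and 159 to 386 without 1 RT library, and 1 member, with 2 to 3 without 1 RT library.

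Log2 ratios changed sign for genes that were not called. In macrophages these were Spp1 at -0.47 and Cd9 at -0.29 in sub-cluster 0, and Lgals3, from -0.0087 (without RT2) to 0.40 without 1 RT library. In monocytes these were Trem2 at -0.083 at resolution 1.2 and -0.046 with no integration, Lpl at -0.13 and -0.043 under the same settings and from -0.033 (without RT1) to 0.30 without 1 RT library, Cd9 from -0.13 (without RT3) to 0.20 and Lgals3 from -0.065 (without RT2) to 0.42. Between macrophages and tumor cells these were Spp1 at -0.28 without doublets, -0.22 at resolution 1.2 and from -0.0039 (without RT3) to 0.16 without 1 RT library, Cd9 at -0.23 and -0.17 under the first and second of these, and Fabp4 at 0.35 without doublets, 0.41 at most 10% mitochondrial UMIs and from -0.70 to 0.60 (without RT2) without 1 RT library. Between macrophages and monocytes these were Fabp4 from -0.022 (without RT2) to 0.19 and Lgals3 from -0.099 to 0.0093 (without RT2) without 1 RT library, and Fabp5 at 0.067 and Lgals3 at 0.065 without doublets. The cause of these changes was not tested. No paired analysis was possible because NT is 1 library, so that the groups share fewer than 2 replicate numbers.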
